A study of Mus musculus with 20 samples.

Results

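AP-1 is a family of dimeric transcription factors, and 8 of its genes (Fos, Fosb, Fosl2, Jun, Junb, Jund, Atf3 and Maff) were followed in the striatum of mice given saline or amphetamine. The members were the loci of the deposited count table that carry one of these symbols. Each symbol was found in a single locus of its own, so that 8 of the 26475 loci with a gene symbol were taken, and all 8 passed the filter on low counts. Fos, Jun, ATF and Maf proteins carry a basic region that touches DNA and a leucine zipper through which they pair. Fos proteins typically bind DNA with a partner, most often a Jun protein, whereas Jun proteins can also pair with themselves. Several of these genes are immediate early genes, whose transcription starts within minutes of neuronal activity and fades again within hours. In the striatum, psychostimulants and dopamine D1 receptor signalling are known to switch on Fos, Fosb and Junb, and a truncated Fosb product, deltaFosB, builds up when a drug is given again and again.

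The samples were whole striatum of 20 male mice labelled Collaborative Cross, at about 6 months of age, 5 in each of 4 groups. One line had been bred for cage overactivity and is called the overactive line here, and the other was its control line. In each line, 5 mice received d-amphetamine at 25 mg/kg and 5 received saline, and the striatum was taken 2 hours later. How many founders or families each line stands for is not stated, so line and family cannot be told apart. RNA was sequenced from both ends, and the study asked how amphetamine changes the striatal transcriptome in each line.

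Library totals ran from 31393788 to 53773028 counts over all loci of the table, with or without a symbol, and no sequencing batch or date was given. Levels are given as CPM, that is, counts scaled by library size and TMM factor, and every mean is given ± SD with n = 5 unless stated. Markers of striatal projection neurons were abundant in every library, with Drd1a between 179 and 303 CPM and Ppp1r1b between 892 and 1698 CPM. Markers of cortical and hippocampal excitatory neurons were present as well, none of the 20 at 0. Their summed level ran from 2278 to 3570 CPM in control saline, 2938 to 3550 in control amphetamine, 1603 to 2467 in overactive saline and 1823 to 3616 in overactive amphetamine. In whole tissue, fewer cells of a type and less RNA per cell cannot be told apart. One library stood apart for the genes described here: library 3 of the overactive saline group held the highest level of Fos, Fosb, Fosl2 and Atf3 among all 20 libraries. The results it bears on most are also given without it.

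The stretches upstream of Fos, Fosb, Junb and Maff are shown because cAMP and calcium signals act on such genes through CREB, which binds TGACG and the full palindrome TGACGTCA. The letters are RefSeq sequence of GRCm38.p6, 250 bases ending just before the annotated start, read 5′ to 3′ on the gene's strand. Capitals mark TGACG on either strand and TATAAA, the core of a TATA box. The Fos stretch is at chr12:85473640-85473889 on the plus strand, Fosb at chr7:19310046-19310295 and Junb at chr8:84978749-84978998 on the minus strand. Maff has 3 annotated starts, and the stretch shown, at chr15:79347270-79347519 on the plus strand, is the one that lies at the start of the deposited locus.
Fos: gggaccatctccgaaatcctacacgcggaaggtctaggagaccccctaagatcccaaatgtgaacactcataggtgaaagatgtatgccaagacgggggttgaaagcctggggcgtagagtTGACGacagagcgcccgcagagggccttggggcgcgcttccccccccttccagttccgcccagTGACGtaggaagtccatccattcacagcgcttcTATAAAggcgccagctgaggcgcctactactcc
Fosb: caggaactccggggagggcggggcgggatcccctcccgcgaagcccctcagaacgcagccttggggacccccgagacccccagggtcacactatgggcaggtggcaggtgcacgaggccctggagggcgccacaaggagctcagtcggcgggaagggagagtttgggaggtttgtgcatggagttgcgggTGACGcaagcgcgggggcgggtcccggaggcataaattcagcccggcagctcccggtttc
Junb: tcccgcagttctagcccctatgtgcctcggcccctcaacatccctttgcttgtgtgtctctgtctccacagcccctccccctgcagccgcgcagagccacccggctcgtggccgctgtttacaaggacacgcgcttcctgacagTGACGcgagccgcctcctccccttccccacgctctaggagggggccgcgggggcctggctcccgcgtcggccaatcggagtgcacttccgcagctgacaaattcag
Maff: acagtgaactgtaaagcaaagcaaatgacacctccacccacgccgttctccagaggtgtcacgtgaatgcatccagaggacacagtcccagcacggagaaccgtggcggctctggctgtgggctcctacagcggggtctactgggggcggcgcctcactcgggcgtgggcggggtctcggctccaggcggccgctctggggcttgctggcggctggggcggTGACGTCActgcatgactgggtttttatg
Fos carried TGACG at 129 and at 66 bases before its start and TATAAA at 33 bases. Fosb carried TGACG at 60 bases and Junb at 106 bases before the start. The Maff stretch held the palindrome TGACGTCA at 29 bases, where TGACG is read on both strands. Of 32851 such stretches in RefSeq, 17.77% held TGACG, 1.546% held TGACGTCA and 12.37% held TATAAA on either strand. In Atf3 the reverse form CGTCA lay 7 bases before the start, while Fosl2, Jun and Jund had no TGACG in their 250 bases. The RefSeq start matches the GENCODE start given further on for Fos and Jun. For Fosb, Fosl2, Junb, Jund, Atf3 and the Maff stretch shown, the RefSeq start differs from it. The Atf3 stretch lies at chr1:191183334-191183583 on the minus strand, while the GENCODE start of Atf3 is at 191218039. All 250 bases of the Fosl2 stretch lie in exons of GENCODE, and the Jund stretch ends at 70697738, before the GENCODE start at 70698949. TGACTCA, the sequence that AP-1 dimers themselves bind, was in none of the 8 genes' stretches and in 4.463% of all. These are matches of letters, and no binding was measured.

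Amphetamine was followed by no change of an AP-1 gene that passed the test in either line. In the control line, 0 of the 8 members passed in edgeR's quasi-likelihood test, 0 at an unadjusted p under 0.05, and DESeq2 also called 0. The background was 0.0% of 17206 genes called by edgeR, with 957 genes (5.56%) at an unadjusted p under 0.05, and DESeq2 called 0 of all genes. In the overactive line, edgeR called 0 members (background 0.0%), 1 member, Atf3, had an unadjusted p under 0.05 (8.03% of all genes), and DESeq2 called 0 members. Over both lines together edgeR and DESeq2 called 0 members, 0 had an unadjusted p under 0.05 (11.0% of all genes), and the edgeR background was 0.0%. Of all genes, DESeq2 called 28 in the overactive line and 128 over both lines. The values of any 2 groups overlapped for every member, in 48 of 48 pairs of groups. The share of all genes with such overlap was not computed, so this count says nothing particular to the members.

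**Figure D1:**
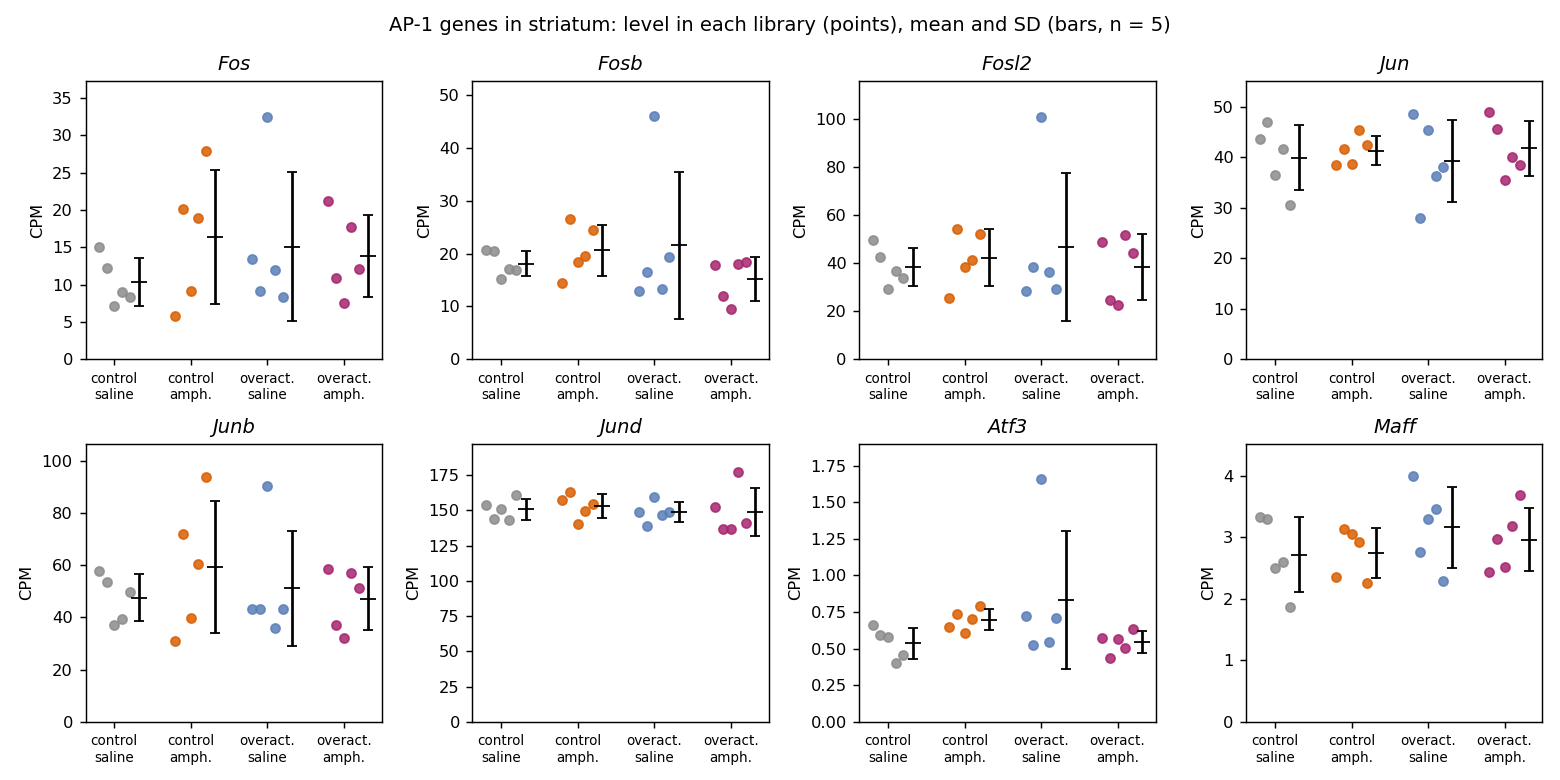
Level of each AP-1 gene in CPM (y axis, from 0) in the 4 groups (x axis), 1 point per library, with the mean and SD of 5 libraries beside the points. The groups overlap in every panel, and 1 overactive saline library lies far above the other four in the panels of Fos, Fosb, Fosl2, Junb and Atf3, at 32.5, 46.0, 101, 90.3 and 1.66 CPM.

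Fos, the founding member of the family and a common marker of recently active neurons, is encoded at chr12:85473890-85477273 on the plus strand (GENCODE M21, GRCm38). Its 5 control saline libraries held 15.1, 12.2, 7.09, 9.001 and 8.36 CPM (mean 10.4 ± 3.26). The 5 control amphetamine libraries held 5.74, 20.1, 9.11, 19.0 and 27.9 CPM (mean 16.4 ± 8.94). In that line 3 amphetamine libraries lay above every saline library, and 1 lay below them all. The fitted log2 fold change was 0.66 (SE 0.42, edgeR adjusted p = 0.894), and its 95% interval spanned folds of 0.867 to 2.89. In the overactive line, saline libraries held 13.5, 9.13, 32.5, 11.9 and 8.27 CPM (mean 15.1 ± 9.99). Overactive amphetamine libraries held 21.3, 10.9, 7.55, 17.7 and 12.02 CPM (mean 13.9 ± 5.51). Treated libraries 1 and 4 exceeded the other 4 saline libraries but not saline library 3, without which the saline mean was 10.7 ± 2.41 CPM (n = 4). The log2 fold change was -0.12 (SE 0.41, edgeR adjusted p = 0.980), and without saline library 3 it was 0.38 (SE 0.38, adjusted p = 0.959).

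Fosb encodes a partner of Jun proteins and, by alternative splicing, deltaFosB, which gene counts do not separate from the full-length form. The gene lies at chr7:19302696-19310051 on the minus strand. Control saline libraries held 20.6, 20.5, 15.2, 17.1 and 16.9 CPM (mean 18.1 ± 2.38). Control amphetamine libraries held 14.4, 26.5, 18.3, 19.5 and 24.4 CPM (mean 20.6 ± 4.83). Only libraries 2 and 5 of the treated group exceeded all of their controls. In the overactive line, saline libraries held 12.8, 16.4, 46.0, 13.2 and 19.3 CPM (mean 21.5 ± 13.9). Amphetamine libraries of that line held 17.9, 11.9, 9.56, 17.996 and 18.4 CPM (mean 15.1 ± 4.13). Without library 3 the saline mean of that line was 15.4 ± 3.04 CPM (n = 4), within the SD of the treated mean. The log2 fold change was 0.19 (SE 0.29) in the control line and -0.51 (SE 0.29) in the overactive line, and -0.03 (SE 0.20) in the latter without that library.

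Fosl2 (chr5:32135801-32157842, plus strand) encodes Fra-2, a Fos protein that lacks the strong activation domain of Fos. In the control line, saline libraries held 49.5, 42.5, 29.0, 36.5 and 33.8 CPM (mean 38.3 ± 7.96). Amphetamine libraries of the control line held 25.3, 54.3, 38.4, 41.1 and 52.2 CPM (mean 42.2 ± 11.7). Both ranges were wide and lay over each other. Overactive saline libraries held 28.5, 38.4, 101, 36.1 and 29.3 CPM (mean 46.7 ± 30.7). Overactive amphetamine libraries held 48.9, 24.6, 22.4, 51.6 and 44.1 CPM (mean 38.3 ± 13.8). Here 3 of the treated libraries exceeded all but one of the saline libraries. Without library 3 the saline mean was 33.1 ± 4.93 CPM (n = 4). The log2 fold change was 0.14 (SE 0.32) in the control line. It was -0.28 (SE 0.32) in the overactive line, and 0.21 (SE 0.25) without saline library 3.

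Junb (chr8:84974484-84978718, minus strand) encodes a Jun protein that is induced by activity along with Fos. Control saline libraries held 57.9, 53.5, 37.2, 39.4 and 49.8 CPM (mean 47.6 ± 8.95). Control amphetamine libraries held 30.7, 71.8, 39.5, 60.6 and 93.6 CPM (mean 59.2 ± 25.2). As for Fos, 3 treated libraries lay above all controls and 1 below them all. Overactive saline libraries held 43.1, 43.1, 90.3, 35.9 and 43.1 CPM (mean 51.1 ± 22.1). Overactive amphetamine libraries held 58.4, 36.9, 32.1, 57.1 and 51.3 CPM (mean 47.2 ± 11.98). Without library 3 the saline libraries spanned 35.9 to 43.1 CPM (mean 41.3 ± 3.59, n = 4), and 3 of the treated libraries lay above that span. The log2 fold change was 0.32 (SE 0.28) in the control line. It was -0.12 (SE 0.28) in the overactive line, and 0.19 (SE 0.26) without that library.

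For Jun and Jund, the other two Jun genes, the group means lay within an SD of each other. Jun (chr4:95049034-95052222, minus strand) is the classic partner of Fos and a target of the JNK kinases. Its group means were 39.9 ± 6.42 CPM in control saline, 41.3 ± 2.84 in control amphetamine, 39.2 ± 8.14 in overactive saline and 41.7 ± 5.51 in overactive amphetamine. Libraries ran from 27.9 to 49.0 CPM, and the log2 fold change for amphetamine was 0.05 (SE 0.13) in the control and 0.09 (SE 0.13) in the overactive line. Jund (chr8:70698949-70700616, plus strand) is the steadily expressed Jun gene. It stood at 151 ± 7.43, 153 ± 8.61, 149 ± 7.14 and 149 ± 17.1 CPM in the same order. Its amphetamine log2 fold changes were 0.02 (SE 0.06) and 0.00 (SE 0.06), and the 95% intervals spanned folds of 0.925 to 1.11 and 0.912 to 1.099. The deposited Jund locus starts at 70693080, well before the annotated gene, so its counts can include reads from outside the annotated gene.

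Atf3 (chr1:191170296-191218039, minus strand), a stress-induced gene whose protein pairs with Jun proteins, was the least abundant member, with 14 to 72 counts per library. Control saline libraries held 0.662, 0.591, 0.576, 0.402 and 0.457 CPM (mean 0.538 ± 0.106). Control amphetamine libraries held 0.649, 0.735, 0.609, 0.704 and 0.792 CPM (mean 0.698 ± 0.0716). In the control line 3 treated libraries exceeded all saline libraries. Overactive saline libraries held 0.723, 0.522, 1.66, 0.544 and 0.708 CPM (mean 0.832 ± 0.473). Overactive amphetamine libraries held 0.573, 0.438, 0.567, 0.503 and 0.633 CPM (mean 0.543 ± 0.0744). The treated values of this line lay within or below the saline range, and the saline mean was 0.625 ± 0.106 CPM (n = 4) without library 3. The log2 fold change was 0.38 (SE 0.27, edgeR adjusted p = 0.894) in the control line and -0.61 (SE 0.27, unadjusted p = 0.0332, adjusted p = 0.551) in the overactive line. Without overactive saline library 3 the latter was -0.20 (SE 0.19, edgeR adjusted p = 0.956).

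Maff (chr15:79346621-79359076, plus strand) encodes a small Maf protein, which has a leucine zipper but no activation domain. Libraries ran from 1.87 to 4.005 CPM. The means were 2.72 ± 0.611 CPM in control saline, 2.74 ± 0.408 in control amphetamine, 3.16 ± 0.662 in overactive saline and 2.96 ± 0.514 in overactive amphetamine. The amphetamine log2 fold change was 0.01 (SE 0.18) in the control line and -0.09 (SE 0.18) in the overactive line, both smaller than their errors.

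The signs of Fos, Fosl2 and Junb in the overactive line turned on saline library 3. In the control line 8 of 8 had a positive log2 fold change (median 0.17), while 48.8% of all genes tested were positive. Several members rose and fell together by library, so these signs are not independent and their count is no test of a response. In the overactive line 2 of 8 were positive (median -0.12), beside 48.3% of all genes, and 5 of 8 (median 0.09) beside 46.9% without library 3. That saline library was singled out for its high levels of these genes. Leaving it out was therefore bound to raise their fold changes, and the rise is no evidence of a response. Whether the response differed by line was itself tested. By edgeR, 0 members passed (background 0.0%) and 1 member, Atf3, had an unadjusted p under 0.05 (2.96% of all genes), and DESeq2 called 0. For Atf3 that difference was -0.99 (SE 0.38, unadjusted p = 0.0174, adjusted p = 0.9999) on the log2 scale, and -0.58 (SE 0.27) without overactive saline library 3. For Fos it was -0.78 (SE 0.58) and -0.29 (SE 0.52) without that library. For Fosb it was -0.70 (SE 0.41) and -0.22 (SE 0.28), respectively. For Fosl2 the difference turned from -0.43 (SE 0.46) to 0.07 (SE 0.34).

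**Figure D2:**
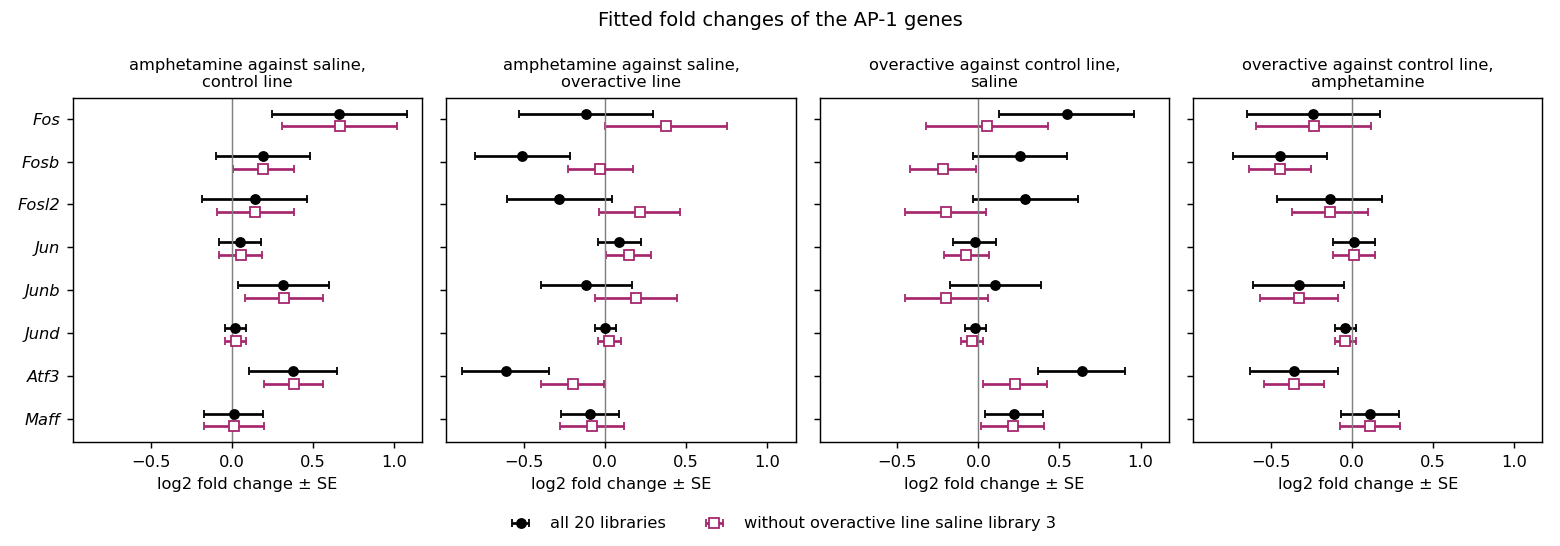
Fitted log2 fold change (x axis, bars are ± SE) of each AP-1 gene in 4 comparisons, with all 20 libraries (filled) and without overactive saline library 3 (open). Leaving out that library moves Fos in the overactive line from -0.12 to 0.38 and Fosb from -0.51 to -0.03. The control line comparison uses no overactive library, so it was bound to stay nearly in place.

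Between the lines, too, no AP-1 gene passed. Both line comparisons use the groups of the amphetamine comparisons, so their values are not independent of those above. In saline, edgeR called 0 members beside 1.11% of all genes, 1 member, Atf3, had an unadjusted p under 0.05 (17.3% of all genes), and DESeq2 called 0. Atf3 had a log2 fold change of 0.64 (SE 0.27, unadjusted p = 0.0288, adjusted p = 0.232 by edgeR), which was 0.23 (SE 0.20, adjusted p = 0.620) without library 3. The value for Fos was 0.54 (SE 0.41), and 0.05 (SE 0.38) without it. Without library 3, Fosb turned from 0.26 (SE 0.29) to -0.22 (SE 0.20), Fosl2 from 0.29 (SE 0.32) to -0.20 (SE 0.25) and Junb from 0.10 (SE 0.28) to -0.20 (SE 0.26). Under amphetamine, edgeR called 0 members beside 0.453% of all genes, 0 had an unadjusted p under 0.05 (12.9% of all genes), and DESeq2 called 0. The largest differences there were -0.44 (SE 0.29) for Fosb, -0.36 (SE 0.27) for Atf3 and -0.33 (SE 0.28) for Junb. Over both treatments edgeR called 0 members beside 7.02% of all genes, 0 had an unadjusted p under 0.05 (25.6% of all genes), and DESeq2 called 0. For Fosb the difference over both treatments was -0.09 (SE 0.21). Without overactive saline library 3 it was -0.33 (SE 0.14, edgeR adjusted p = 0.157), and 1 member then had an unadjusted p under 0.05, beside 23.999% of all genes. The difference over both treatments was 0.17 (SE 0.13) for Maff and -0.03 (SE 0.05) for Jund.

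Some markers of cell types differed by line. Of the 20 cortical and hippocampal markers, edgeR called 2 lower in the overactive line in saline, beside 1.11% of all genes, and 4 lower over both treatments, beside 7.02%. Over both treatments it also called 4 of 12 microglia markers and 1 of 20 striatal projection neuron markers lower, and 3 of 11 astrocyte, 1 of 11 oligodendrocyte, 2 of 16 endothelial and mural and 2 of 12 choroid plexus and ependymal markers higher. It called 0 of 12 meningeal markers and 0 of 19 thalamic, hypothalamic and septal markers. Of these 19, 11 had an unadjusted p under 0.05, beside 25.6% of all genes. All 19 were positive (median 0.68), beside 50.2% of all genes. Their mean score varied widely between libraries of a group (SD 0.90 in overactive saline), so this count of signs is no test of a line effect. With amphetamine, the cortical markers had a median log2 fold change of 1.17 in the overactive line, with 0 called and 15 of 20 at an unadjusted p under 0.05 (8.03% of all genes), and of 0.28 in the control line. Slc30a3, the zinc transporter of cortical synaptic vesicles, stood at 24.5 ± 6.29 CPM in control saline and 7.49 ± 4.02 in overactive saline (edgeR adjusted p = 0.0486). Jund was the member that followed the cortical markers most closely within groups (r = 0.67, rho = 0.60, n = 20 libraries, permutation p = 0.00844 for r and 0.0146 for rho). Adjusted over 72 relations of a member with a marker score, that p was 0.385, and r was 0.53 without the 2 libraries farthest out in cortical score. With cortical and thalamic scores as covariates, the line difference of Jund in saline was 0.12 (SE 0.07) in place of -0.02 (SE 0.06), and 0 members passed in any comparison. What part cell composition has in the members' values was otherwise not tested.

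**Figure D3:**
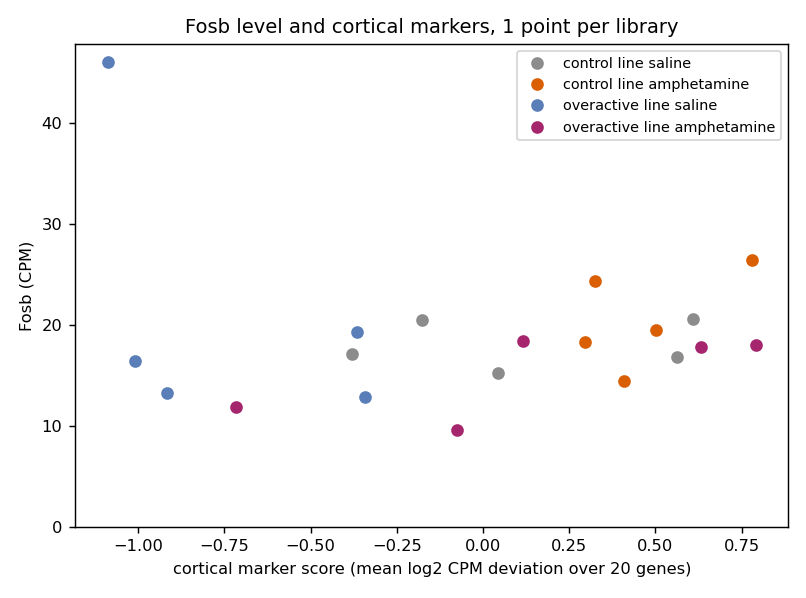
Fosb level in CPM (y axis, from 0) against the cortical marker score of the library (x axis, mean log2 CPM deviation over 20 markers), 1 point per library, colored by group. Overactive saline library 3, at 46.0 CPM, has the lowest cortical score of the 20 libraries, -1.09. Libraries 2 and 4 of that group have scores of -1.01 and -0.92, with Fosb at 16.4 and 13.2 CPM. Within groups, Fosb and the score had r = 0.12 (n = 20 libraries), and 0.37 without overactive saline library 3.

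Overactive saline library 3 was set apart in 5 of the 8 members. Against the median of the other 4 saline libraries of its line, it held 3.09 times as much Fos, 3.10 times as much Fosb and 3.09 times as much Fosl2. The factor was 2.65 for Atf3 and 2.10 for Junb. For Jun, Jund and Maff it was 1.23, 1.08 and 1.06. Among 40 other immediate early genes it held the highest value of the 20 libraries in 13 (32.5%), against 5.47% of all genes tested. Its level of Arc, whose product acts at synapses after activity, was 286 CPM, and that of the nuclear receptor gene Nr4a1 was 170 CPM. Its striatal projection neuron markers were not low, at rank 17 from the lowest of 20, and its cortical marker Slc17a7 was the lowest of all, at 78.5 CPM. When and how this mouse was handled is not given, and the source of its values was not tested.

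**Figure D4:**
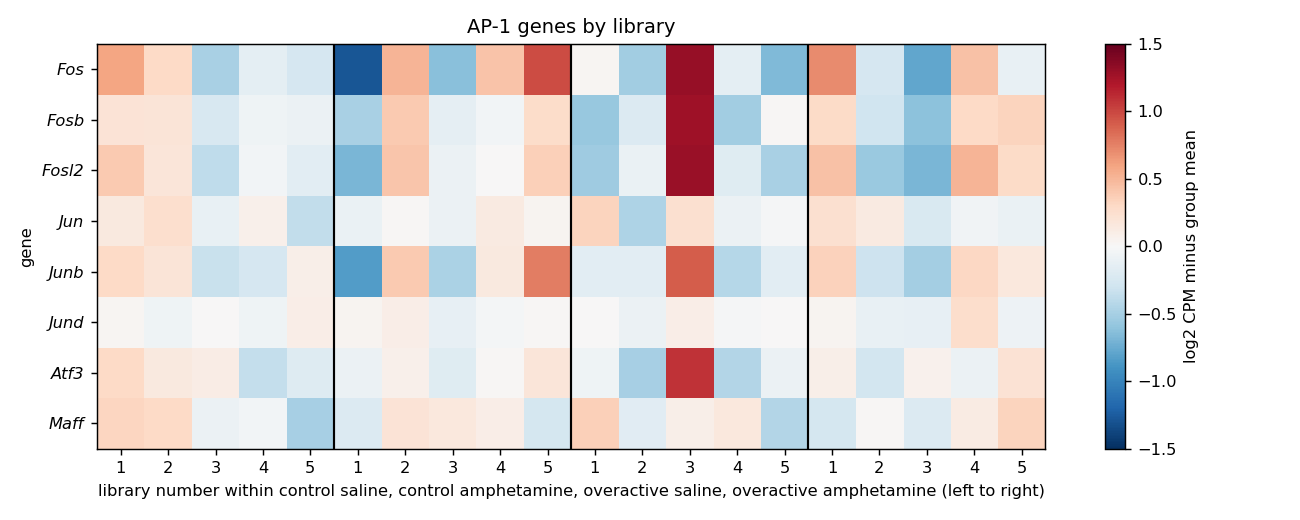
Deviation of each AP-1 gene (rows) from its group mean in log2 CPM (color), for the 5 libraries of each group (columns, groups divided by lines). Fos, Fosb, Fosl2 and Junb are high or low together in most libraries, while Jun, Jund and Maff vary less and do not follow them closely. Exceptions include overactive saline library 1 (Fos 0.03, Fosb -0.57) and library 5 of that group (Fos -0.67, Fosb 0.02).

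Within groups, the members varied to very different degrees. The SD between libraries of a group was 53.4% of the mean for Fos, 44.1% for Fosl2, 41.1% for Fosb and 35.8% for Junb. Of the genes within a factor of 2 of its level, 98.9% had a smaller within-group SD than Fos, 99.4% than Fosl2, 97.8% than Fosb and 99.1% than Junb. Atf3 varied by 38.0%, but at its low counts only 56.3% of like genes varied less. Maff varied by 19.2%, Jun by 14.9% and Jund by 7.24%. Without overactive saline library 3 the SD was 44.7% of the mean for Fos, 27.3% for Fosl2, 21.6% for Fosb and 30.9% for Junb, and 97.5%, 97.5%, 88.0% and 98.7% of like genes varied less. For Atf3 it was 15.0% without that library, and 1.32% of like genes varied less. Per kilobase of annotated exon, Jund was the most abundant member (90.1 CPM per kb), followed by Junb (22.3), Jun (12.7), Fos (5.92), Fosl2 (4.27), Fosb (3.02), Maff (1.12) and Atf3 (0.303). The value of Jund carries the doubt about its locus.

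Members that varied most varied together. After each group's mean was taken off, the 6 pairs among Fos, Fosb, Fosl2 and Junb had Pearson's r from 0.77 to 0.93 and Spearman's rho from 0.72 to 0.91 over 20 libraries. Permutation p-values of r, with labels permuted within groups and adjusted over all 28 pairs of members, were from 0.00014 to 0.00462 for them. Before adjustment, Fos with Fosl2 was at 1e-05, the smallest p that 100000 permutations can give, and the other five pairs were at 2e-05 to 0.00099. Leaving out the 2 libraries farthest from the median gave r from 0.65 to 0.89, and leaving out overactive saline library 3 alone gave 0.69 to 0.91. The closest pair was Fos with Junb (r = 0.93), and Fosb with Fosl2 was next to it (r = 0.93). Atf3 followed these genes with r from 0.61 to 0.76, and 3 of its 4 pairs with them passed. Without overactive saline library 3 its r was 0.37 to 0.51, so that this relation rests in large part on that library. Of 12 pairs between the first 4 genes and Jun, Jund or Maff, 1 passed, Fos with Jun (r = 0.58, permutation adjusted p = 0.0244). Of 3 pairs among Jun, Jund and Maff, 0 passed, with r from -0.07 to 0.48. These blocks of genes were formed after the values were seen. The share of other gene pairs with such r was not computed, so the counts of pairs that passed say nothing particular to the members. Libraries of a group also differed in tissue markers, and what part that has in these r was not tested.

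**Figure D5:**
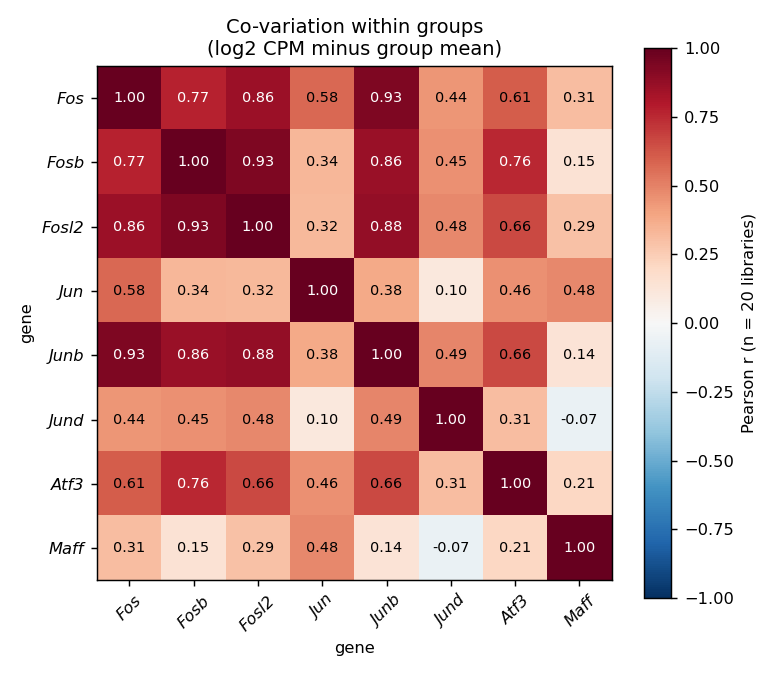
Pearson's r between AP-1 genes over 20 libraries (color and number), computed on log2 CPM after the group mean was taken off. Fos, Fosb, Fosl2 and Junb form a block with r of 0.77 or more, and the lowest value is -0.07, between Jund and Maff.

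The genes whose pattern was most like the members' mean were sought among 14378 genes with a mean of at least 1 CPM, over the same 20 libraries. The nearest were Nr4a3 (r = 0.92) and Nr4a1 (r = 0.91), orphan nuclear receptor genes that are themselves immediate early genes. Mamld1 (0.90), Stk40 (0.90), Dusp6 (0.89), which encodes a phosphatase of the ERK kinases, Midn (0.88), Arc (0.88), Dedd2 (0.87), Zcchc2 (0.86) and Egr4 (0.86) came next. Without overactive saline library 3 the r of these 10 genes was 0.77 to 0.90. Of the 10, 5 are in the list of 40 other immediate early genes. That list was chosen with earlier results of these data known, so the overlap is no independent support. The share of the list among the genes searched was not computed. For single members the nearest gene was Nr4a1 for Fos (0.93) and Junb (0.95), and Nr4a3 for Fosb (0.98) and Fosl2 (0.97). Jun was nearest to Dpp7 (0.82), Jund to Coro1a (0.87), Maff to Fem1b (0.85) and Atf3 to Fosb (0.76, and 0.50 without that library). Nr4a3 had a log2 fold change for amphetamine of 0.18 (SE 0.32) in the control and -0.42 (SE 0.32) in the overactive line, and Arc of 0.53 (SE 0.46) and 0.06 (SE 0.45). None of these passed by edgeR, with adjusted p from 0.818 to 0.992.

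Genes around AP-1 were counted in lists by role. Of 29 other AP-1, ATF and Maf family genes, 25 could be tested, and in the 3 amphetamine comparisons edgeR called 0. In the control line 1 had an unadjusted p under 0.05, beside 5.56% of all genes. The count was 3 in the overactive line, beside 8.03%, and 3 over both, beside 11.0%. Over both treatments edgeR called 1 of the 25 (4.0%) between the lines, beside 7.02% of all genes. Atf5, a stress-responsive ATF gene, was higher in the overactive line over both treatments (log2 fold change 0.23, SE 0.07, edgeR adjusted p = 0.049). Of 35 upstream kinases and activators, edgeR called 0 in the 3 amphetamine comparisons. In the control line 1 had an unadjusted p under 0.05, beside 5.56% of all genes. The count was 6 in the overactive line, beside 8.03%, and 9 over both lines, beside 11.0%. The list as a whole was not tested. Between the lines over both treatments, edgeR called 1 of the 35 higher and 1 lower in the overactive line, 5.71% of the list beside the same 7.02%. Mapk8, which encodes the Jun kinase JNK1, fell by 0.16 on the log2 scale (SE 0.04, edgeR adjusted p = 0.0214) relative to the control line. A locus shared by Gm1604b and Rps6ka2, the latter a kinase downstream of ERK, was higher by 0.26 (SE 0.06, edgeR adjusted p = 0.0109), and its reads cannot be given to either gene. Of 26 genes described as targets of AP-1 or deltaFosB, 25 were tested and edgeR called 0 in all 7 comparisons. For amphetamine, 1 had an unadjusted p under 0.05 in the control line, 5 in the overactive line and 6 over both. The shares of all genes were 5.56%, 8.03% and 11.0%. For the difference between lines in the response it was 0, beside 2.96%. Between the lines it was 3 in saline, 1 under amphetamine and 5 over both, beside 17.3%, 12.9% and 25.6%. Of the 40 other immediate early genes edgeR also called 0 in each. In the same order and beside the same shares, 1, 4 and 6 had an unadjusted p under 0.05 for amphetamine. It was 1 for the difference in response, and 5, 1 and 6 between the lines. In the control line 37 of the 40 had a positive amphetamine log2 fold change (median 0.18), beside 48.8% of all genes. Several of these genes rose and fell together by library, so this count of signs is no test of a response. In the overactive line 18 of the 40 had a positive log2 fold change (median -0.01), beside 48.3%. Without saline library 3, 32 of the 40 had one (median 0.14), beside 46.9%. That library was singled out for high AP-1 levels and was high in many of these genes too. Leaving it out therefore tends to raise their fold changes, and the rise is no evidence of a response.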

How the data were processed

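Striatal RNA of 20 mice was measured by paired-end RNA sequencing, 5 libraries in each of 4 groups taken from the labels. The authors deposited 1 table of expected counts per locus, not scaled between libraries, with gene symbols and locus spans. The submitters' processing notes name the builds mm10 and GRCm38, and the aligner and counter are not given in the sources used here. Of the values, 93.9% were whole within 0.01. The table held 37051 loci, and 10576 without a symbol (0.65% of counts) were left out.

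Expected counts were rounded and analysed in R 4.3.3 with edgeR 4.0.16. filterByExpr left 17206 genes, scaling was by TMM, and all 20 libraries entered 1 quasi-likelihood model with a mean for each group. Of its 7 comparisons, 3 set treated against saline mice (control line, overactive line, both), 1 asked whether that response depends on line, and 3 set the overactive against the control line (saline, amphetamine, both). The two-sided p-values were adjusted by Benjamini and Hochberg's method across the 17206 genes, and the threshold was 0.05. The 95% intervals are fold changes with their SE and the model's degrees of freedom. DESeq2 1.42.0 was an alternative, besides other scaling, filters, covariates, a replicate block and leaving out each library. Replicates are separate mice per the labels' protocols. Any 2 libraries of a group differed far beyond sampling noise, so none was counted as a duplicate. The fitting steps were tested on simulated data.

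Correlations used log2 CPM (prior count 2, edgeR) less the group mean, with 100000 permutations within groups. A marker score is the mean log2 CPM deviation of a list's genes from their mean over all libraries. Positions are GENCODE M21 genes on GRCm38, and upstream sequences are RefSeq's. Python 3.11.15 was used for the tables and figures.

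All 8 members are named. Of each gene list, at most 3 passing members were eligible to be named, smallest p first, and named markers beyond them describe the tissue. Likeness names the 10 genes nearest to the members' mean and the 1 nearest to each member. The members and lists were chosen with earlier results of these data known.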

Additional observations from a re-analysis of the deposited data

Results flagged for a closer look

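In the overactive saline group, replicate 3 stood far from the other four libraries in 5 of the 8 AP-1 genes. Its level was 32.5 CPM for Fos, where the next highest library held 13.5. It was 46.0 CPM for Fosb, with 19.3 next, and 101 CPM for Fosl2, with 38.4 next. It was 90.3 CPM for Junb, with 43.1 next, and 1.66 CPM for Atf3, with 0.723 next. In each case the gap to the next library, divided by the group's range, was above Dixon's critical value of 0.71. Chance flags about 1 in 20 groups, and 5 of the 32 groups examined (8 genes in 4 groups) were flagged, all of them in the same library. Levels of these genes were correlated across libraries, so the flags are not independent of each other.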

How the results depend on the processing

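No AP-1 gene passed in any of the 186 counts of members called under an alternative, and the lowest adjusted p of a member was 0.154 (Atf3, lines in saline, without overactive saline replicate 2). Of 1481 alternative values of single members, 1400 kept their direction and 81 changed sign, none of them past the threshold. Of these sign changes, 68 came from leaving out 1 library, and 14 of those from leaving out overactive saline replicate 3.

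With cortical and thalamic scores as covariates the sign changed in 12 values. For Jund it became -0.031 for amphetamine in the control line, -0.15 in the overactive line and -0.090 over both, and 0.12, 0.0075 and 0.066 for the line comparisons (saline, amphetamine, both). For Jun it became -0.0063 for amphetamine in the overactive line, -0.053 for the difference between lines, 0.0090 for the lines in saline and -0.044 under amphetamine. Fosl2 became 0.023 for the lines under amphetamine and Junb 0.054 for the lines over both treatments. The cause was not tested.

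The replicate numbers do not pair the libraries: deviations of libraries with the same number correlated by -0.23 to 0.25, and 6 of 20 libraries correlated best with their own number. With the replicate number as a block, 0 members passed, and Jund in the overactive line became -0.00092. The block gave 51 genes called under amphetamine between lines, where the fit without it gave 78.

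Counts of all genes called moved more. DESeq2 called 28 and 128 genes for amphetamine in the overactive line and over both lines, and 764, 322 and 2095 for the line comparisons (saline, amphetamine, both). The covariates gave 19, 46 and 173 for the lines, and a fit of only the groups compared gave 50 under amphetamine.

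Leaving out 1 library gave 0 to 4 genes for amphetamine over both lines (4 without control saline replicate 1 or overactive amphetamine replicate 2). It gave 67 to 240 for the lines in saline, with 100 without overactive saline replicate 3, 75 without replicate 4 of that group, and 124, 115, 101 and 67 without control saline replicates 1, 2, 3 and 5. It gave 23 to 88 under amphetamine, with 23 without overactive amphetamine replicate 2 and 35, 43 and 38 without control amphetamine replicates 3, 4 and 5. It gave 770 to 1414 over both treatments, with 770 without control saline replicate 5 or overactive amphetamine replicate 2 and 783 without overactive saline replicate 4.

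Leaving out 1 library at a time also gave the following ranges of log2 fold change that hold both signs. For amphetamine in the control line they were -0.030 to 0.12 for Jun, -0.0036 to 0.051 for Jund and -0.097 to 0.096 for Maff. In the overactive line they were -0.32 to 0.38 for Fos, -0.42 to 0.21 for Fosl2, -0.010 to 0.18 for Jun, -0.22 to 0.19 for Junb, -0.070 to 0.031 for Jund and -0.19 to 0.0025 for Maff. Over both lines they were -0.23 to 0.083 for Fosb, -0.14 to 0.18 for Fosl2, -0.013 to 0.26 for Junb, -0.024 to 0.027 for Jund, -0.18 to 0.091 for Atf3 and -0.096 to 0.0087 for Maff. For the difference between lines they were -0.56 to 0.067 for Fosl2, -0.061 to 0.12 for Jun, -0.091 to 0.0096 for Jund and -0.20 to 0.0021 for Maff. Between the lines in saline they were -0.22 to 0.40 for Fosb, -0.20 to 0.43 for Fosl2, -0.11 to 0.076 for Jun, -0.20 to 0.22 for Junb and -0.040 to 0.0052 for Jund. Between them under amphetamine they were -0.45 to 0.045 for Fos, -0.28 to 0.0065 for Fosl2 and -0.051 to 0.068 for Jun. Over both treatments they were -0.090 to 0.29 for Fos, -0.17 to 0.15 for Fosl2, -0.045 to 0.045 for Jun, -0.26 to 0.0020 for Junb and -0.065 to 0.20 for Atf3.

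The spread between mice limits the precision. The 95% interval of the amphetamine response in the control line reached folds of 2.89 for Fos and 1.11 for Jund.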
